A study of Homo sapiens with 60 samples.

Results

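The genes described here are very long: 57 human genes whose bodies, from first to last annotated base, span 329 kb to 2.06 Mb. They were listed for a body far above the length of most genes after IMMP2L, THSD4, SHANK2, LPP and TMEM117 had been seen to fall in HT29 cells given an extract of Aconiti Lateralis Radix Preparata. HT29 is an established human colorectal adenocarcinoma line. Of the 57 listed genes, 54 reached 0.5 CPM (counts scaled to library size) in at least 3 of 60 libraries and were among the 16022 genes tested. The other 3 did not pass. FHIT reached 0.5 CPM in 2 libraries, with a highest value of 0.63 CPM, PTPRG was at most 0.278 CPM, and NBEA was at most 0.0446 CPM. Just inside the limit lay TTC28, which reached 0.5 CPM in 43 libraries and had a median of 0.586 CPM. The changes with Aconiti Lateralis Radix Preparata prompted the list, so they are given as a description, and calls among them are not read as a test.

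The cells had 24 h with 70% ethanol extracts of 6 herbs or 2 formulas, each in DMSO, or with the vehicle alone. The herbs were Aconiti Lateralis Radix Preparata (processed aconite root), Coptidis Rhizoma (goldthread rhizome), Bupleuri Radix, Cimicifugae Rhizoma, Citri Unshius Pericarpium (mandarin peel) and Zizyphi Fructus (jujube), and the formulas were Yijung-tang and Banhasasim-tang. Coptidis Rhizoma was given at 12.8 (low), 64 (medium) and 320 µg/mL (high), Bupleuri Radix at 12.4, 62 and 310 µg/mL, and the rest at 20, 100 and 500 µg/mL. A dose was covered by 3 libraries of Aconiti, Bupleuri, Cimicifugae and Citri, by 2 of Coptidis, Zizyphi and Yijung-tang and by 1 of Banhasasim-tang, and vehicle by 3. The groups share the 1 cell line, and the labels do not say that libraries came from separate cultures, so p-values measure the spread between these libraries, which may be technical.

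RNA polymerase II needs hours to cross a gene of this size, nearly all of which is intron, and a short mature mRNA results. Transcription of such genes is known to depend on elongation factors, on the kinases that release and drive the polymerase, on topoisomerases that relieve the twist ahead of it, and on suppression of premature cleavage sites in introns. Several very long genes, WWOX and FHIT among them, lie at common fragile sites, where late replication and long transcription units coincide. In bulk RNA a lower level can come from less RNA per cell or from fewer cells with the RNA, which cannot be told apart.

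Libraries held 18.1 to 36.7 M counts, with a median of 24.1 M, and 3 counts, the floor used here, corresponded to 0.0815 to 0.236 CPM. The colon epithelium markers EPCAM, CDH1, KRT8, KRT18, KRT20 and VIL1 were abundant, whereas CDX1 and CDX2 had medians of 1.09 and 5.74 CPM. Among markers of other cell types, PTPRC had no count in 43 of 60 libraries and COL1A2 none in 55, while PECAM1 and COL1A1 had medians of 1.61 and 1.28 CPM. Zizyphi Fructus medium replicate 3 stood apart. Its counts differed from those of its replicate by a chi-square of 647 per degree of freedom, against a median of 4.55 over 48 replicate pairs. Vehicle replicates 1 and 3 came next, at 21.2. Sets were inferred here from the first part of each library's code in the labels. By that code vehicle libraries form a set of their own, and the extracts fall into sets of 2 (Coptidis with Zizyphi, Citri with Cimicifugae, Bupleuri with Aconiti, Yijung-tang with Banhasasim-tang). The labels do not say what the code stands for, and all titles name the same batch. Extract and set cannot be told apart in any contrast with vehicle, so high against low dose, made within a set, comes first here.

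The 54 tested genes had a median body of 662 kb, against 24.3 kb over all tested genes with coordinates, and a median spliced transcript of 4.40 kb, against 2.62 kb. Their median longest intron measured 149 kb and their median first intron 35.0 kb, against 7.22 and 2.75 kb over all tested genes. Spliced sequence made up a median of 0.718% of the gene body. The genes lie on 18 chromosomes, 8 of them on chromosome 3. MACROD2, an ADP-ribosyl hydrolase gene, was the longest at 2057.8 kb, and DPH6, which serves diphthamide synthesis on elongation factor 2, the shortest at 328.85 kb. Per length of spliced transcript, levels in vehicle ran from 0.0393 CPM per kb for TTC28 to 98.0 CPM per kb for SND1, a nuclease of RNA silencing complexes. A further 374 tested genes also had a body of at least 300 kb and were not on the list, with a median of 394 kb.

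Windows from 250 bases before to 50 bases after the start of transcription (RefSeq, GRCh38.p14) were on hand for 46 of the 54 genes. The RefSeq and GENCODE starts differ for some genes. CpG sites numbered a median of 29.5 per window, against 26 over 11020 tested genes, and the median GC content was 65.0% in both. The motif TATAAA, searched on both strands, was in 3 of the 46 windows (6.52%), in 5.93% of windows of tested genes and in 11.95% of all 27305 windows. Shown are windows of 3 genes whose levels were lower with both Aconiti and Coptidis. They are IMMP2L (minus strand, chr7:111562443-111562742), TMEM117 (plus strand, chr12:43835831-43836130), which holds TATAAA on the reverse strand 28 bases before the start, and WWOX (plus strand, chr16:78099404-78099703). The RefSeq start lies 241 bases inside the gene body given here for WWOX and 114 bases inside it for TMEM117, so the WWOX window lies almost wholly within that body. CpG sites are in capitals, 31 in IMMP2L, 49 in TMEM117 and 38 in WWOX.
IMMP2L: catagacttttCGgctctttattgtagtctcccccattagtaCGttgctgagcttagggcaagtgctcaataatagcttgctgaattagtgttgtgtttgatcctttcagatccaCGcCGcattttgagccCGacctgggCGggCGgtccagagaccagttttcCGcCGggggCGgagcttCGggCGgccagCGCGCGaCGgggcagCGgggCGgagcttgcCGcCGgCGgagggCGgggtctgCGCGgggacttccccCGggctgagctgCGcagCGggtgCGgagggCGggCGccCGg
TMEM117: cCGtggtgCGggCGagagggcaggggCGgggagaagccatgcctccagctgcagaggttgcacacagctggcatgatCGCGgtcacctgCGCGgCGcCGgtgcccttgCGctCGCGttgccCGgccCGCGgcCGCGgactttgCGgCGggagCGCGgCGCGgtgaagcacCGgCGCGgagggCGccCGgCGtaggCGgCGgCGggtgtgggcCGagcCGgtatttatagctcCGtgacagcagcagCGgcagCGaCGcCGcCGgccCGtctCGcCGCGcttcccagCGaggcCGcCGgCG
WWOX: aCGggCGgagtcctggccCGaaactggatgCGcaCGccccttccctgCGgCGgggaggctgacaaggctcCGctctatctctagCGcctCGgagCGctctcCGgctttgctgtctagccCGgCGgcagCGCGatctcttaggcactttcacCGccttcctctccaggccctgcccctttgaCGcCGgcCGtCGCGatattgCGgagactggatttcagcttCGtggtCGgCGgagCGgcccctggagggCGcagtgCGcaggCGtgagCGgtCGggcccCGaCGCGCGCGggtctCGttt

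Across the 8 extracts, very long genes were lower at high than at low dose with Aconiti and with Coptidis, a few were lower with Bupleuri and Cimicifugae, and none passed the threshold with the others. Genes are called higher or lower at an adjusted p under 0.05 in edgeR's quasi-likelihood test, adjusted over all 16022 tested genes. With Aconiti 45 members were called lower and 0 higher, where 2.23% of all genes were called lower and 0.474% higher, a count the choice of genes bears on and from which nothing is read. With Coptidis 35 were called lower and 2 higher, where 28.4% of all genes were called lower and 27.8% higher. With Bupleuri 8 were called lower and 0 higher (6.59% and 6.34% of all genes), and with Cimicifugae 4 and 0 (0.437% each). The median log2 change over the members was -0.56 with Aconiti, -0.60 with Coptidis, -0.06 with Bupleuri and -0.05 with Cimicifugae, where the median over all genes was 0.01, -0.02, -0.01 and 0.00.

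**Figure D1:**
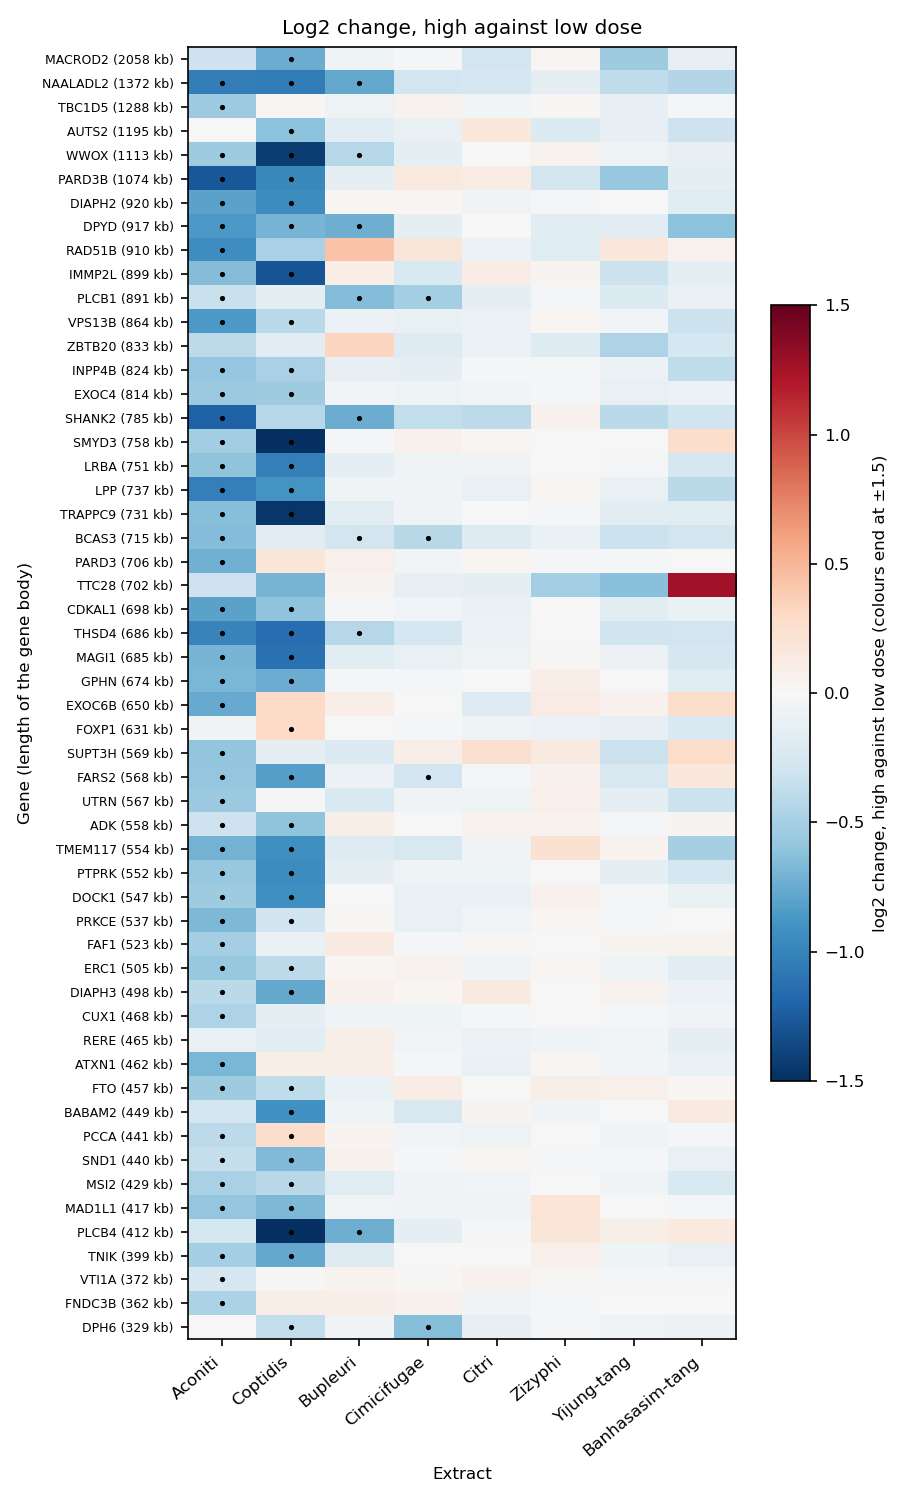
Log2 change between high and low dose for each of the 54 tested very long genes (rows, longest gene body at the top) in each of the 8 extracts (columns). Blue is lower at high dose, red is higher, colours end at 1.5 on either side, and a dot marks an adjusted p under 0.05; the Aconiti and Coptidis columns are mostly blue and the others paler.

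Among the 5 genes that prompted the list, IMMP2L encodes a subunit of the peptidase of the inner mitochondrial membrane (chr7:110663051-111562517, minus strand). Its body of 899 kb holds 7 exons and 1.21 kb of spliced sequence, and its longest intron measures 524 kb. IMMP2L had 3.39, 4.18 and 3.10 CPM in the libraries of high-dose Aconiti, against 4.62, 6.53 and 5.54 CPM at low dose. Every high-dose library lay below every low-dose library, and the log2 change was -0.66 ± 0.18 (SE). Leaving out 1 library gave changes of -0.79 to -0.53, and the gene was no longer called lower in 4 of 7 such fits, those without high replicate 1 or 3 or low replicate 2 or 3. With Coptidis the gene had 2.44 and 2.88 CPM at high dose, against 6.23 and 6.80 CPM at low dose. There the groups were farther apart, with a log2 change of -1.30 ± 0.22 and an adjusted p of 3.4e-06 in edgeR. Over the 14 high-dose libraries of the other 6 extracts IMMP2L ran from 4.26 to 6.75 CPM with a median of 5.56. The vehicle libraries had 8.59, 7.25 and 7.68 CPM, above the low doses of every extract.

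THSD4 (chr15:71096952-71783383, plus strand) encodes an extracellular matrix protein that binds fibrillin. It had 15.0, 21.7 and 17.7 CPM with high-dose Aconiti, against 35.5, 37.2 and 36.7 CPM at low dose. The high-dose libraries lay well below the others, with a log2 change of -1.01 ± 0.09 (SE). With Coptidis THSD4 had 15.4 CPM in each of the 2 high-dose libraries, against 32.6 and 35.4 CPM at low dose (log2 change -1.14 ± 0.11, adjusted p = 2e-11). With Bupleuri it had 28.5, 27.96 and 27.99 CPM at high dose, against 38.4, 37.4 and 37.9 CPM at low dose (log2 change -0.43 ± 0.09, adjusted p = 0.00045). THSD4 was thus called lower with these 3 extracts, by a smaller amount with Bupleuri, and the difference between Coptidis and Bupleuri was not tested.

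SHANK2 (chr11:70467856-71252577, minus strand) encodes a scaffold of synapses that is also present at the apical side of epithelial cells. It had 2.19, 1.43 and 1.24 CPM with high-dose Aconiti, against 3.47, 3.77 and 3.82 CPM at low dose, a log2 change of -1.21 ± 0.19 (SE). With Bupleuri it had 1.47, 2.86 and 2.03 CPM at high dose, against 4.05, 3.52 and 3.20 CPM at low dose (log2 change -0.75 ± 0.18, adjusted p = 0.0036). The groups did not overlap, though 1 high-dose Bupleuri library decided the call: without replicate 1 the log2 change was -0.55 and the adjusted p 0.062. With Coptidis SHANK2 had 2.48 and 2.29 CPM at high dose and 3.07 and 3.36 CPM at low dose. That change, -0.43 ± 0.22 on the log2 scale, did not pass (adjusted p = 0.1), so SHANK2 alone of the 5 genes was not called lower with Coptidis.

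LPP (chr3:188153284-188890671, plus strand) encodes a LIM-domain protein of focal adhesions and cell contacts, with a spliced transcript of 18.3 kb, the longest of the 5. It had 45.4, 59.997 and 46.0 CPM with high-dose Aconiti, against 109, 101 and 97.7 CPM at low dose, a log2 change of -1.02 ± 0.10 (SE). With Coptidis it had 47.8 and 45.2 CPM at high dose, against 78.6 and 94.5 CPM at low dose (log2 change -0.90 ± 0.12, adjusted p = 3.2e-08). High-dose libraries of the other 6 extracts held 81.1 to 105 CPM, so those of Aconiti and Coptidis lay below all of them. TMEM117 (chr12:43835967-44389762, plus strand), a multipass membrane protein, had 2.28, 2.66 and 2.22 CPM with high-dose Aconiti, against 3.43, 4.31 and 3.86 CPM at low dose, a log2 change of -0.70 ± 0.11. With Coptidis TMEM117 had 2.06 and 2.00 CPM at high dose, against 3.60 and 4.10 CPM at low dose (log2 change -0.92 ± 0.14, adjusted p = 4.6e-07). In both extracts the doses were fully separated.

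**Figure D2:**
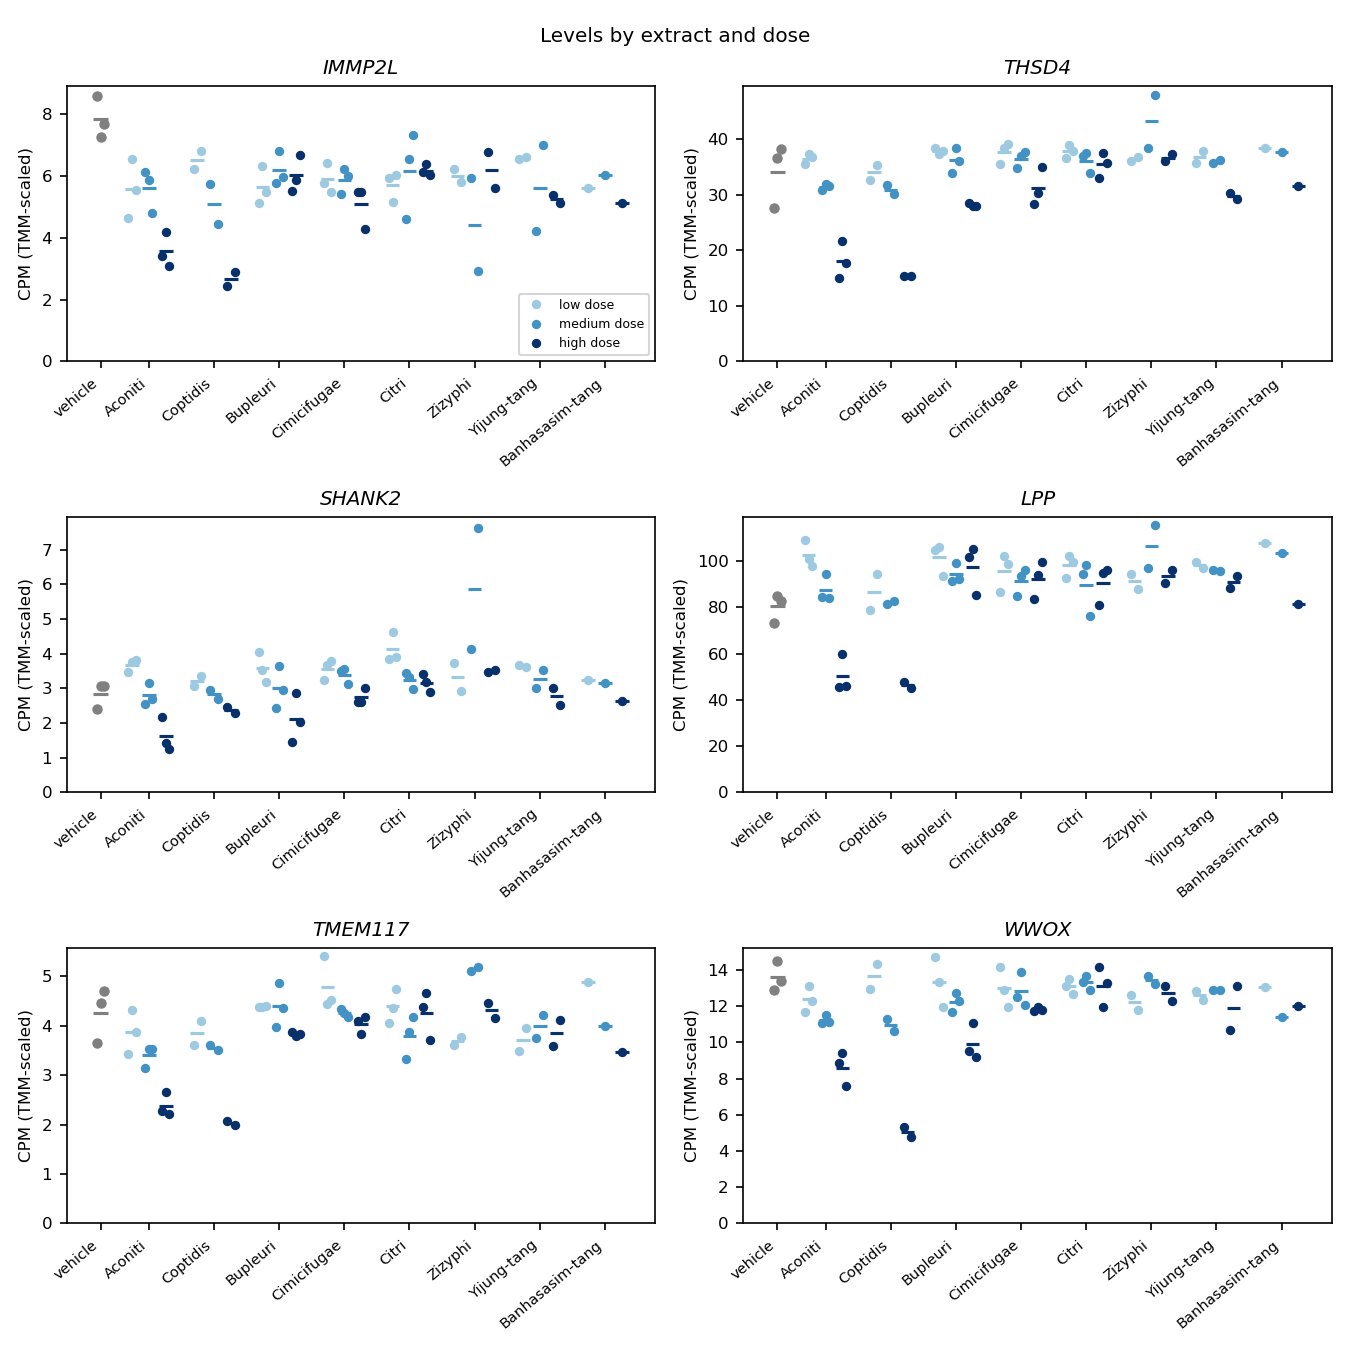
Levels in CPM, scaled by TMM, of IMMP2L, THSD4, SHANK2, LPP, TMEM117 and WWOX in each library (points) with group means (bars), for vehicle and for low, medium and high dose of each extract. The high-dose points of Aconiti and Coptidis lie lowest in most panels, and 1 medium-dose Zizyphi library stands apart in several.

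Beyond these 5, high-dose Aconiti came with a negative median change in every role group. The calls, made at the threshold given above, describe genes listed after falls with Aconiti and are not read as a test. Of 7 genes of vesicle traffic all 7 were called lower, with a median log2 change of -0.60. EXOC6B, a subunit of the exocyst, had 3.66, 3.29 and 4.37 CPM at high dose, against 6.13, 6.90 and 6.22 CPM at low dose (log2 change -0.75). Of 11 genes of polarity, junctions and scaffolds all 11 were called lower, with a median of -0.69. The largest change of all members with Aconiti was that of PARD3B, a relative of the polarity protein PAR3. PARD3B had 0.669, 0.717 and 0.685 CPM at high dose, against 1.42, 1.84 and 1.76 CPM at low dose, 2.42-fold lower. Its relative PARD3 had 22.4, 29.9 and 26.5 CPM at high dose and 43.4, 42.0 and 44.4 CPM at low dose. For both genes the dose groups were clear of each other.

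Of the 10 signalling and actin genes 9 were called lower with Aconiti, the exception being the phospholipase C gene PLCB4 (log2 change -0.26). Of 11 genes of transcription, chromatin and RNA 7 were called lower, and ZBTB20, FOXP1, AUTS2 and RERE were not. Of 7 mitochondrial, metabolic and translation genes 6 were called lower, the exception being DPH6. DPH6 had 11.9, 12.4 and 10.4 CPM with the high dose and 11.5, 11.5 and 11.8 CPM with the low dose. Of 4 repair and mitosis genes 2 were called lower, and TTC28 and BABAM2 were not. In the fragile-site group 1 of 2 tested genes was called lower, and MACROD2 was not. NAALADL2, a membrane protein of the glutamate carboxypeptidase family with a body of 1372 kb, had 11.2, 12.8 and 11.8 CPM at high dose, against 25.8, 23.1 and 24.8 CPM at low dose. In all, 47 of the 54 genes had every high-dose library below every low-dose library, as did 12.7% of all tested genes, and 53 of 54 had a negative log2 change. The changes ran from -1.27 to 0.00, and 5 genes were at least 2-fold lower.

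With Coptidis the members' changes were not used for the choice and were tested, although the list was drawn up with earlier results of these data known. Most very long genes were lower at high dose, 9 of them at least 2-fold, in an extract that moved most of the transcriptome: 35 members (64.8%) were called lower, against 28.4% of all tested genes and 43.0% of the 374 other genes of at least 300 kb. Of the members, 42 had both high-dose libraries below both low-dose libraries, where 41.6% of all genes did. The largest fall among the members was that of PLCB4, a phospholipase C of G protein signalling. PLCB4 had 0.826 and 0.917 CPM at high dose, against 3.20 and 3.01 CPM at low dose, 3.55-fold lower (log2 change -1.83 ± 0.21, adjusted p = 9.9e-10). High-dose libraries of the other 6 extracts had 1.69 to 3.75 CPM, above both Coptidis libraries. SMYD3 (chr1:245749342-246507312), a lysine methyltransferase gene, had 2.89 and 3.09 CPM at high dose, against 9.30 and 8.95 CPM at low dose (log2 change -1.61 ± 0.17, adjusted p = 1.1e-10).

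TRAPPC9 (chr8:139727725-140458579), a subunit of the vesicle-tethering complex TRAPPII, had 30.4 and 32.0 CPM at high dose of Coptidis, against 83.9 and 87.8 CPM at low dose. The 2.76-fold difference was the most precise of those named with Coptidis (log2 change -1.46 ± 0.07, adjusted p = 8.9e-21). WWOX (chr16:78099413-79212667), the fragile-site oxidoreductase with a reported tumour-suppressor role, had 5.33 and 4.79 CPM at high dose, against 12.9 and 14.3 CPM at low dose. Its log2 change was -1.43 ± 0.11 (adjusted p = 1.4e-14), and its longest intron, 779 kb, is the longest of the 54 genes. MACROD2, the other tested gene of the fragile-site role group used here, had 2.06 and 2.21 CPM at high dose, against 4.05 and 3.13 CPM at low dose (log2 change -0.74 ± 0.18, adjusted p = 0.00071). FHIT, the remaining gene of that group, was below the filter on low counts, at 0.188 and 0.292 CPM with the high dose and 0.489 and 0.352 CPM with the low dose.

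By role, high-dose Coptidis came with lower levels of 4 of 7 vesicle traffic genes, 7 of 11 polarity and scaffold genes, 7 of 10 signalling and actin genes, 5 of 11 genes of transcription, chromatin and RNA, 2 of 4 repair and mitosis genes, 6 of 7 mitochondrial, metabolic and translation genes and both membrane proteins of less known role. The group medians ran from -0.16 for transcription, chromatin and RNA to -1.09 for the 2 tested genes of the fragile-site group. Only 2 members were called higher. PCCA, the alpha subunit of propionyl-CoA carboxylase, had 24.1 and 22.4 CPM at high dose, against 19.2 and 19.5 CPM at low dose (log2 change 0.27 ± 0.10, adjusted p = 0.016). FOXP1, a forkhead transcription factor, had 68.9 and 68.4 CPM at high dose, against 56.8 and 54.4 CPM at low dose (log2 change 0.30 ± 0.13, adjusted p = 0.044). Both calls were weak: leaving out 1 library ended the PCCA call in 2 of 5 cases and the FOXP1 call in 4 of 5, with adjusted p up to 0.119 and 0.162.

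The high against low change of Coptidis was tested against that of Zizyphi, of the same set. The difference was negative and past the threshold for 29 of the 54 genes and positive for 0, where 21.8% of all genes were called lower and 21% higher, with a median of -0.50 over the members and -0.02 over all genes. IMMP2L (-1.33 ± 0.30, adjusted p = 0.00034), THSD4, LPP and TMEM117 were among the 29, and SHANK2 was not (-0.50 ± 0.31, adjusted p = 0.2). The Coptidis libraries also differed in the share of counts from mitochondrial ribosomal RNA, with means of 10.1% (low dose), 6.35% (medium) and 1.60% (high). The part of that share in the result was not tested. Against vehicle, where that share was 1.11%, 32 members were called lower and 4 higher at high dose of Coptidis (32% and 30.9% of all genes), with a median log2 change of -0.54.

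Called lower with both Aconiti and Coptidis were 30 members. They were 85.7% of the 35 lower with Coptidis, where 83.3% of all 54 were lower with Aconiti, and 66.7% of the 45 lower with Aconiti, where 64.8% of all 54 were lower with Coptidis. The overlap of the members was thus close to what the length of each list alone gives, and the Aconiti calls bear on the choice of genes. Among the 374 other long genes 77 were lower in both, 47.8% of the 161 lower with Coptidis, where 34.0% of the 374 were lower with Aconiti. The sizes of change went together only loosely, with a Spearman correlation of 0.23 across the 54 members and 0.25 across the 374 others, genes that share libraries and are not independent. ZBTB20, FOXP1, RERE and TTC28 were called lower in neither.

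**Figure D3:**
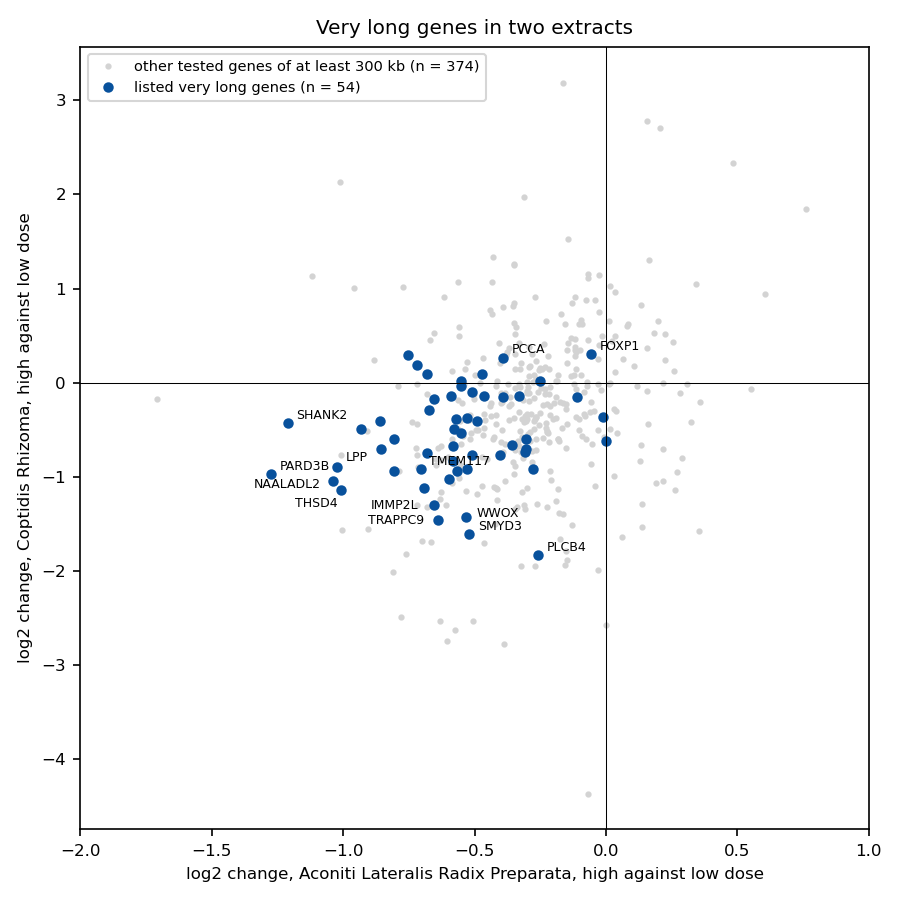
Log2 change between high and low dose with Coptidis (vertical) against that with Aconiti (horizontal), 1 point per gene, for the 54 tested very long genes (blue) and the 374 other tested genes of at least 300 kb (grey). Most blue points lie in the lower left, PLCB4 lies far down near the vertical axis, and PCCA and FOXP1 lie above zero for Coptidis.

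The extracts also parted on single genes. EXOC6B had 7.28 and 7.55 CPM at high dose of Coptidis and 5.20 and 6.88 CPM at low dose, a log2 change of 0.29 ± 0.13 that did not pass (adjusted p = 0.061), against -0.75 with Aconiti. PARD3 had 48.6 and 53.1 CPM at high dose of Coptidis and 42.4 and 47.1 CPM at low dose (log2 change 0.18, adjusted p = 0.077), against -0.72 with Aconiti. PCCA had 14.0, 14.1 and 12.3 CPM at high dose of Aconiti, against 17.0, 18.7 and 17.1 CPM at low dose, opposite in direction to Coptidis. PLCB4 was 3.55-fold lower with Coptidis, whereas with Aconiti it had 2.59, 2.36 and 2.19 CPM at high dose and 2.97, 2.55 and 2.98 CPM at low dose. Because the 2 extracts belong to different sets, the differences between them were not tested.

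With high-dose Bupleuri 8 members fell: NAALADL2, SHANK2, DPYD, PLCB4, PLCB1, THSD4, WWOX and BCAS3. NAALADL2 had 14.6, 15.7 and 13.9 CPM at high dose, against 26.0, 24.6 and 24.6 CPM at low dose (log2 change -0.77 ± 0.14, adjusted p = 0.00013). DPYD, dihydropyrimidine dehydrogenase, which begins the breakdown of pyrimidines, had 3.65, 3.91 and 3.57 CPM at high dose, against 5.51, 5.69 and 7.24 CPM at low dose (log2 change -0.73 ± 0.13, adjusted p = 3.7e-05). PLCB4 had 1.91, 1.69 and 1.80 CPM at high dose, against 3.24, 2.82 and 2.90 CPM at low dose (log2 change -0.73 ± 0.16, adjusted p = 0.00068). PLCB1, a second phospholipase C beta, had 5.47, 6.21 and 5.91 CPM at high dose, against 9.81, 9.12 and 8.82 CPM at low dose (log2 change -0.65 ± 0.10, adjusted p = 2e-06). In each of these 4 genes the doses were separated without overlap. LPP and IMMP2L, by contrast, had log2 changes of -0.06 and 0.10 and did not pass. Of all members 18 had every high-dose Bupleuri library below every low-dose library, against 19% of all genes. Without Zizyphi medium replicate 3 in the fit 14 members passed in place of 8, and the share of all genes in that fit is not given here.

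The difference between the Bupleuri and Aconiti changes, in the same set, was positive for 32 genes and negative for 0 at the threshold (4.59% and 3.93% of all genes), which is a description because the Aconiti change prompted the list. On the log2 scale it ran from -0.47 for PLCB4 to 1.36 for RAD51B, a gene of homologous recombination. PARD3B (1.13) and LPP (0.97) came next to RAD51B.

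With high-dose Cimicifugae 4 members fell. DPH6 had 7.92, 7.96 and 7.31 CPM at high dose, against 10.5, 11.5 and 14.1 CPM at low dose (log2 change -0.64 ± 0.10, adjusted p = 6.4e-05). Its medium-dose libraries had 10.2, 9.85 and 10.2 CPM, between the others. PLCB1 had 5.93, 7.38 and 7.14 CPM at high dose, against 9.42, 9.86 and 9.99 CPM at low dose (log2 change -0.51 ± 0.10, adjusted p = 0.0011). BCAS3, a phosphoinositide-binding protein linked to cell migration, had 6.65, 5.92 and 6.23 CPM at high dose, against 8.08, 8.66 and 8.26 CPM at low dose (log2 change -0.41 ± 0.08, adjusted p = 0.0033). FARS2, the mitochondrial phenylalanyl-tRNA synthetase, had 9.19, 8.30 and 8.73 CPM at high dose, against 10.4, 10.4 and 11.2 CPM at low dose (log2 change -0.29 ± 0.07, adjusted p = 0.038). The groups did not overlap in any of these genes, but FARS2 did not pass with DESeq2 (adjusted p = 0.129) or in 6 of 7 fits without 1 library. With only the compared libraries in the fit, 2 of the 4 passed. Among all members 17 were lower in every high-dose library, against 9% of all genes. Neither DPH6 nor any other member differed past the threshold between the changes of Citri and Cimicifugae, where 0.2% of all genes did: edgeR and DESeq2 called 0, and 4 had an unadjusted p under 0.05, as had 3.7% of all genes.

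In the other 4 extracts 0 members passed between high and low dose, in edgeR and in DESeq2 on all libraries. Of all genes 0% passed with Zizyphi, 0.144% with Citri, 0.206% with Yijung-tang and 1.73% with Banhasasim-tang. With only the compared libraries in the fit, 4 members passed with Yijung-tang. The share of all genes in that fit is not given here, so the count is not read as a result about the members. An unadjusted p under 0.05 in edgeR was reached by 1 of 54 members with Zizyphi (2.07% of all genes), 3 with Citri (6.55%), 7 with Yijung-tang (6.05%) and 6 with Banhasasim-tang (8.88%). The members' median log2 change was 0.00, -0.05, -0.06 and -0.11 in the same order, where that over all genes was 0.0005, -0.0035, 0.0018 and 0.0056. Negative changes were seen for 25, 40, 46 and 41 of the 54 members. Every high-dose library lay below every low-dose library for 8, 6, 25 and 41 members, as for 17.5%, 9.16%, 21.9% and 48.6% of all genes. For Banhasasim-tang, with 1 library per dose, the spread was borrowed from the other groups, and without Zizyphi medium replicate 3 in the fit 1 member passed. Yijung-tang and Banhasasim-tang changes differed for 0 members in both tools (0.462% of all genes), with 4 at an unadjusted p under 0.05, as had 5.02% of all genes.

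Taking each library's median over the 54 genes relative to the vehicle mean, the low, medium and high doses of Aconiti lay at 0.09 ± 0.01, -0.02 ± 0.04 and -0.45 ± 0.10 on the log2 scale (SD, n = 3 each). Those of Coptidis lay at 0.07 ± 0.05, -0.03 ± 0.01 and -0.48 ± 0.02 (SD, n = 2 each). In both extracts most of the drop came at the step between medium and high dose, and the dose groups did not overlap. The 3 vehicle libraries lay at -0.09, 0.04 and 0.07. High-dose libraries of the other 6 extracts lay between -0.01 and 0.12. Zizyphi medium replicate 3 lay at 0.45, with a mitochondrial ribosomal RNA share of 2.96%, against 0.11 and 0.891% in its replicate. That share was 1.12% at high dose of Aconiti, 1.18% at low dose and 1.11% in vehicle. With Banhasasim-tang it was 10.2% in the high-dose library, whose median lay at -0.01, and 1.11% in the low-dose library, whose median lay at 0.13. The part of the ribosomal RNA share in these results was not tested.

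**Figure D4:**
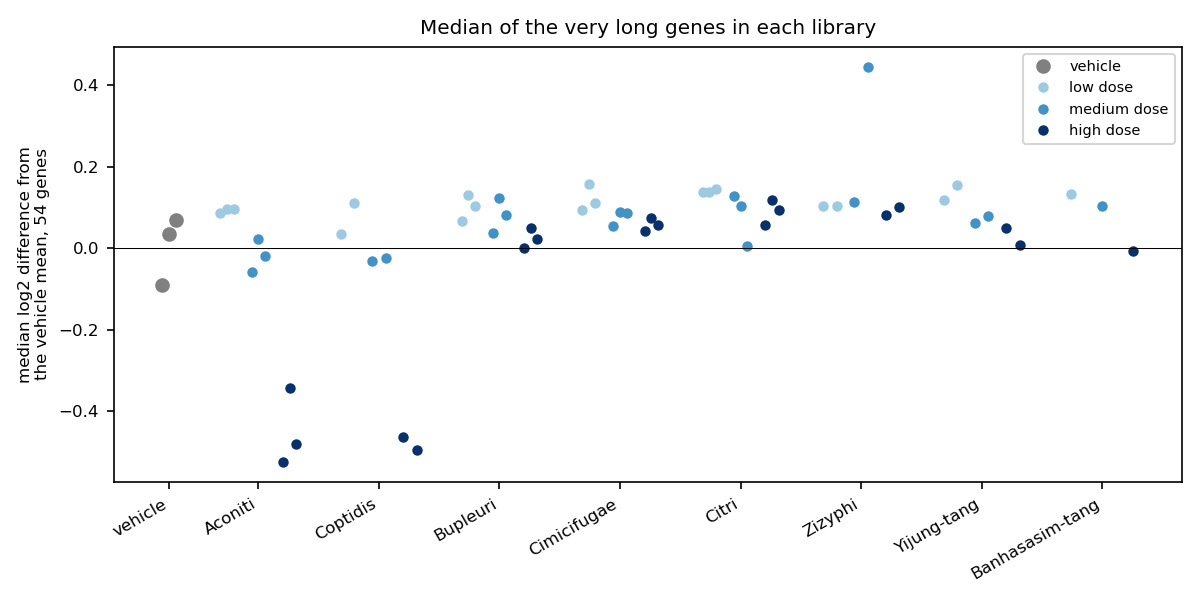
Median over the 54 tested very long genes of the log2 difference from the vehicle mean, for every library (points), in vehicle and in low, medium and high dose of each extract. The high-dose libraries of Aconiti (-0.53 to -0.34) and Coptidis (-0.49 and -0.46) lie below all others, and the point near 0.45 is Zizyphi medium replicate 3.

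Against vehicle, 42 members were called lower and 0 higher at high dose of Aconiti (7.96% and 9.35% of all genes), again a description, with a median log2 change of -0.48. With the other extracts fewer passed, and the counts hung on single libraries. With Zizyphi 3 rose (UTRN, PLCB4 and TNIK) and 0 fell, where 4.38% and 2.53% of all genes did. Leaving out vehicle replicate 1, or Zizyphi high replicate 2 or 3, gave 0 calls, leaving out vehicle replicate 3 gave 7, and leaving out Zizyphi medium replicate 3 gave 12. With Citri 4 rose, the same 3 and LRBA, and 0 fell (7.61% and 5.6% of all genes), with 0 calls without vehicle replicate 1, 1 without Citri high replicate 2 or 3, and 12 without Zizyphi medium replicate 3. With Cimicifugae 7 rose and 4 fell (10.3% and 7.7%), DPH6 (log2 change -0.76) and IMMP2L (-0.63) among those that fell, with 3 calls without vehicle replicate 1, 7 without Cimicifugae high replicate 2 and 19 without Zizyphi medium replicate 3. With Bupleuri 7 rose, LPP (0.28) among them, and 7 fell (14.3% and 12.7%), with 9 calls without vehicle replicate 1 or 2 and 21 without Zizyphi medium replicate 3. With Yijung-tang 3 rose and 2 fell (4.66% and 2.98%), with 2, 3, 1, 0 and 10 calls without vehicle replicate 1, vehicle replicate 2, Yijung-tang high replicate 1, Yijung-tang high replicate 2 and Zizyphi medium replicate 3. With Banhasasim-tang 0 passed in edgeR and 1 in DESeq2 (7.6% of all genes passed in edgeR), 8 had an unadjusted p under 0.05 (20.4% of all genes), and without Zizyphi medium replicate 3 there were 9 calls, without vehicle replicate 3 there were 3, and without vehicle replicate 1 or 2 there was 1. All of these comparisons share the vehicle libraries. The shares of all genes belong to the fit on all libraries, and those of the fits without 1 library are not given here.

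The changes were also read over all tested genes by length of the gene body, in classes chosen after the data had been seen. With Aconiti 0.263% of genes under 50 kb were called lower, 0.207% at 50 to 100 kb, 3.93% at 100 to 200 kb, 18.7% at 200 to 300 kb, 38.4% at 300 to 500 kb and 46.5% at 500 kb to 1 Mb. The median log2 change was 0.03 under 50 kb and -0.46 at 500 kb to 1 Mb. Of the 358 genes called lower with Aconiti, 172 (48.0%) had a body of at least 300 kb, members included. The classes from 300 kb up hold all 54 tested members, so the choice of genes bears on their Aconiti shares. Of the 374 other genes of at least 300 kb, 34.0% were called lower with Aconiti and 43.0% with Coptidis. With Coptidis the shares were 28.1%, 26.8%, 28.1%, 31.1%, 44.2% and 49.1% over the same classes, on a background where most genes moved, and the medians -0.04, 0.08, 0.04, 0.00, -0.22 and -0.49. In the class of at least 1 Mb, with 20 genes, 30% were called lower with Aconiti and 50% with Coptidis. With Bupleuri the shares from under 50 kb up to 500 kb to 1 Mb were 5.65%, 7.59%, 8.61%, 11%, 12.9% and 14%, where 6.59% of all genes were called lower. The median log2 change under 50 kb and at 500 kb to 1 Mb was -0.01 and -0.12 with Bupleuri and -0.01 and -0.09 with Cimicifugae. It was 0.00 and -0.05 with Citri, 0.01 and -0.10 with Yijung-tang and 0.03 and -0.18 with Banhasasim-tang. With Zizyphi the 2 medians were -0.002 and -0.005. By length of the spliced transcript (under 2, 2 to 4, 4 to 8 and at least 8 kb), the share called lower with Aconiti was 0.511%, 1.45%, 4.9% and 7.73% over all genes. Among genes of at least 300 kb, members included, it was 19.6%, 33.9%, 46.5% and 45.5%, and among genes under 100 kb 0.204%, 0.24%, 0.384% and 0.229%. The share was thus higher for longer transcripts within the long genes as well, whereas few genes under 100 kb were called lower in any class.

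**Figure D5:**
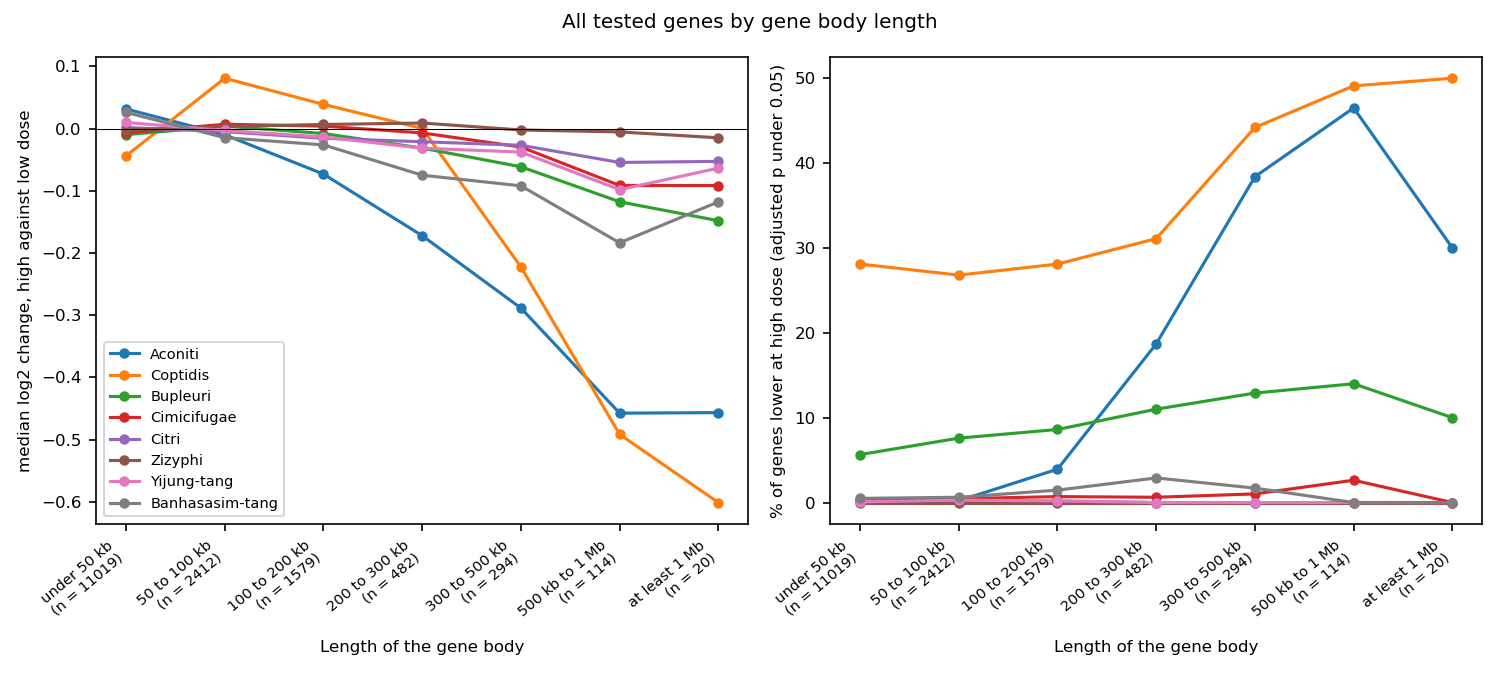
All tested genes with coordinates, grouped by length of the gene body (horizontal axis, with the number of genes in each class), for the 8 extracts (lines). Classes from 300 kb up include the 54 tested listed genes, a list prompted by falls with Aconiti. The left panel gives the median log2 change between high and low dose and the right panel the percentage of genes called lower at high dose. The lines turn down on the left and up on the right, for Aconiti from 100 to 200 kb on and for Coptidis beyond 200 to 300 kb. The Aconiti share is 46.5% at 500 kb to 1 Mb and 30% at 1 Mb and above.

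Within the 54 members, longer bodies went with more negative changes to a modest degree. Spearman's correlation of the log2 change with body length was -0.43 with Aconiti, -0.27 with Coptidis and -0.24 with Bupleuri, and with the longest intron -0.28, -0.29 and -0.25. With spliced length it was -0.13, 0.11 and -0.22, with GC content of the transcript 0.07, -0.06 and 0.12, and with mean level 0.14, 0.11 and 0.16. These describe the same genes in the same libraries. Falls with Aconiti prompted the list, so the Aconiti correlations are a description only and nothing is read from them. Length did not set the order gene by gene. MACROD2, the longest, had log2 changes of -0.31 with Aconiti and -0.74 with Coptidis. PLCB4, at 412 kb and with no intron over 29.2 kb in the transcript used, fell most with Coptidis.

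Of 33 tested genes of RNA polymerase II elongation, pausing and DNA relaxation, 17 rose and 6 fell at high dose of Coptidis (27.8% of all genes were called higher and 28.4% lower), with a median log2 change of 0.22. The largest rises were those of ELL2 (log2 change 1.53 ± 0.09, adjusted p = 8.3e-19), TCEA1 (1.18 ± 0.09, adjusted p = 5.7e-15), AFF4 (1.10 ± 0.09, adjusted p = 1.9e-13) and ELL (0.75 ± 0.11, adjusted p = 1.2e-07). ELL, ELL2 and AFF4 belong to the super elongation complex, and TCEA1 restarts stalled polymerase. TOP1, the main topoisomerase ahead of the polymerase, rose by 0.37, and TOP2A and TOP2B fell by 0.20 and 0.26. With Aconiti 1 of the 33 passed, HEXIM1, an inhibitor of the elongation kinase P-TEFb (log2 change 0.25 ± 0.06), and with Bupleuri 1, ELL2 (-0.25 ± 0.07, adjusted p = 0.017). The median log2 change of the 33 with Aconiti was -0.03.

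Of the 374 long genes outside the list, 127 were called lower and 0 higher with Aconiti (median log2 change -0.29). GRIP1, a scaffold of glutamate receptors, had 0.223, 0.127 and 0.261 CPM at high dose, against 0.731, 0.628 and 0.714 CPM at low dose. The value of 0.127 CPM lay at the floor. With Coptidis 161 of them were called lower and 73 higher (median -0.27). SYNE1, which encodes the nuclear envelope protein nesprin-1, had 10.7 and 11.3 CPM at high dose, against 0.934 and 1.45 CPM at low dose. LHFPL3, of the tetraspan LHFPL family, had 0.0375 and 0.0417 CPM at high dose, under the floor, against 0.934 and 0.899 CPM at low dose. With Bupleuri HDAC9, a class IIa histone deacetylase, had 1.56, 1.13 and 0.997 CPM at high dose, against 0.567, 0.188 and 0.184 CPM at low dose. Long genes outside the list thus held rises as well as falls with Coptidis and Bupleuri, where 17 rose and 48 fell with Bupleuri.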

How the data were processed

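Total RNA of HT29 cells was made into 60 directional mRNA libraries and read in pairs by the authors, per the labels' protocols. The deposited table holds expected counts per Ensembl gene. FastQC 0.11.9, Trim Galore 0.6.5, STAR 2.7.3a, RSEM 1.3.3 and the build GRCh38 (hg38) are named in the submitters' processing notes. The gene annotation and the strand setting of counting are not given in the sources used here, so genes nested in long introns may share reads. Of 270 columns, 210 match no sample and were not used.

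The authors' expected counts were rounded to whole numbers, which moved no library total by more than 0.00022%. The filter kept genes that reached 0.5 CPM in 3 or more libraries. A model with 25 group means and 35 residual degrees of freedom was fitted with edgeR 4.0.16 (TMM, quasi-likelihood, R 4.3.3), with Benjamini-Hochberg adjustment over 16022 genes and a threshold of 0.05; SE is the log2 change over the root of F. Groups of a single library borrow the spread of the other groups. The common biological coefficient of variation was 7.83%. The script was tested on simulated data. Body lengths come from GENCODE 29, which holds 94.0% of the 60675 IDs, and promoters from RefSeq. The body spans all transcripts of a gene. Exons, introns, spliced length and GC content are those of a single transcript, in coding genes the one with the longest coding sequence. The transcript present in these cells may differ. The longest coding transcripts of DPH6 and TBC1D5 span 175 and 584 kb, in bodies of 329 and 1288 kb.

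The members and lists were chosen with earlier results of these data known. Named were the 5 genes that prompted the choice, up to 4 members with the largest rise and fall past the threshold in each high against low comparison, up to 4 elongation genes, and up to 2 other long genes in each direction, the last group shown in part. DPH6, MACROD2, FHIT, EXOC6B, PARD3 and RAD51B are also given where the rule does not name them, chosen after their values were seen. Alternatives were DESeq2 1.42.0 and its size factors, no filter on low counts, the compared groups alone, a replicate block, offsets for GC content, and each library left out. Finer length classes and spliced length were added after seeing the data. The floor of 3 counts covers counting error only, whereas SE and SD include the spread between libraries.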

Additional observations from a re-analysis of the deposited data

Results flagged for a closer look

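The change between high and low dose differed between Coptidis and Zizyphi for 29 of the 54 very long genes, by a test of the difference itself in edgeR. In that test 21.8% of all genes were called lower and 21% higher. Among the named genes the log2 difference was -2.01 for PLCB4, -1.61 for SMYD3, -1.49 for WWOX, -1.44 for TRAPPC9, -1.33 for IMMP2L, -1.15 for THSD4, -1.15 for TMEM117 and -0.93 for LPP, each more negative with Coptidis. Between Bupleuri and Aconiti the change differed for 32 members, all less negative with Bupleuri, where 4.59% of all genes were called higher and 3.93% lower. That count of 32 describes genes listed after falls with Aconiti.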

How the results depend on the processing

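The sign was followed under the alternatives run for 39 changes past the threshold, of the prompting genes and the members with the largest changes. No sign turned, which could be foreseen for changes that had passed. Other named changes, those near 0 among them, were not followed. Member medians near 0 did turn their sign. That of Zizyphi high against low dose went down to -0.0108 without 1 library and was also below 0 with GC offsets, that of Banhasasim-tang against vehicle was above 0 without vehicle replicate 3 and with the replicate block, and those of Cimicifugae and Yijung-tang against vehicle were below 0 without vehicle replicate 1. With the compared groups alone the members past the threshold numbered 2 for Cimicifugae, 16 for Bupleuri and 4 for Yijung-tang between high and low dose, and against vehicle 0 for Zizyphi, 2 for Citri, 7 for Cimicifugae and 0 for Yijung-tang. Without a filter on low counts they numbered 1 for Zizyphi, 1 for Citri and 2 for Yijung-tang against vehicle, and with GC offsets 1, 1 and 2, with 1 for Banhasasim-tang. DESeq2 gave 1 for Banhasasim-tang against vehicle. The median log2 change against vehicle was -0.62 for Coptidis with the compared groups alone and -0.61 with GC offsets, and -0.53 for Aconiti with GC offsets. The causes were not tested. With GC offsets the calls against vehicle over all genes numbered 460 for Zizyphi, 920 for Citri, 898 for Yijung-tang and 1240 for Banhasasim-tang. Calls over all genes are not given for the compared groups alone, the fit without a filter, the replicate block or the fits without 1 library.

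The main fit did not pair libraries by replicate number. Correlations of same-numbered libraries ran from -0.22 to 0.41, a range that does not settle whether the numbers pair them. There was a tendency in the Citri and Cimicifugae set, with a median of 0.18, against -0.07 for different numbers. There 29 of 45 such pairs were over 0.1, against 16 of 90 with different numbers. In the Bupleuri and Aconiti set the medians were 0.13 and -0.07, with 30 of 45 against 2 of 90. In the other sets, with at most 2 libraries per group, deviations from the group mean mirror each other and say little on pairing. A replicate block gave 38 members and a median of -0.59 for Coptidis high against low dose, and moved no count of members by more than 1.5 times and no member median by more than the replicate spread of 0.0425. The replicate block with GC offsets gave, against vehicle, medians of -0.61 for Coptidis and -0.53 for Aconiti, and counts of 0 for Zizyphi, 1 for Citri and 2 for Yijung-tang. In the same fit the median log2 change of the members, Zizyphi Fructus high dose against vehicle, was 0.0302.

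Leaving out 1 library at a time gave, between high and low dose, 7 to 14 members past the threshold for Bupleuri and 1 for Banhasasim-tang, and medians of -0.62 to -0.53 for Coptidis, -0.64 to -0.53 for Aconiti and -0.112 to -0.0649 for Yijung-tang. Against vehicle the counts ran from 0 to 12 for Zizyphi, 0 to 12 for Citri, 3 to 19 for Cimicifugae, 9 to 21 for Bupleuri, 0 to 10 for Yijung-tang and 1 to 9 for Banhasasim-tang. Medians against vehicle ran from -0.58 to -0.49 for Coptidis, 0.0400 to 0.114 for Citri, -0.00551 to 0.0732 for Cimicifugae, -0.55 to -0.43 for Aconiti and -0.0323 to 0.0417 for Yijung-tang. The difference of Coptidis and Zizyphi had medians of -0.53 to -0.46, that of Bupleuri and Aconiti 0.43 to 0.52, and that of Citri and Cimicifugae counts of 0 to 1. Groups of 1 to 3 libraries and levels near 1 CPM limit what could be detected.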

Other observations

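ARL15, a small GTPase gene with a body over 300 kb that is not on the list, was singled out after its values were seen. It fell between high and low dose with Coptidis (log2 change -1.30 ± 0.09), Bupleuri (-0.57 ± 0.07) and Cimicifugae (-0.27 ± 0.07) in edgeR's quasi-likelihood test, with adjusted p-values of 1.4e-16, 1.7e-08 and 0.034. With Banhasasim-tang, at 1 library per dose, ARL15 had 21.0 CPM at high dose, against 31.3 CPM at low dose, in libraries with 10.2% and 1.11% mitochondrial ribosomal RNA, whose part in it was not tested. With Aconiti its log2 change was -0.61 ± 0.07.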
